A study of Xenopus laevis with 3 samples.

Results

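Amino acid changes that swap isoleucine (I), leucine (L), valine (V) and methionine (M) for one another were counted and described in Xenopus laevis (African clawed frog). The members are all missense sites of the authors' per-site table whose reference and variant residue both belong to these 4 residues. They numbered 3740 of 29008 missense sites, or 12.9% (exact 95% binomial interval 12.5 to 13.3), in 2980 of 11603 genes. RNA came from whole tadpoles at Nieuwkoop-Faber stage 42, with 10 animals pooled per cross. There were 3 libraries, with 1 each for inbred albino offspring, inbred pigmented offspring of the J strain, and offspring of matings between those inbred populations. Stated depth was 30000000 to 47000000 paired-end reads of 100 bases per library. No column names a library, so the crosses were not compared and no spread between libraries could be measured; intervals cover counting error over sites only, and the depth behind a site was not analysed here. Exchanges are written with the reference residue first, as in L-to-M, and a change such as I148L gives the reference residue, its position in the authors' protein model and the variant residue.

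Isoleucine, leucine and valine carry branched hydrocarbon side chains and, with the unbranched, sulfur-bearing methionine, fill the hydrophobic cores of folded proteins and the spans that cross membranes. Swaps among them keep the side chain hydrophobic and are usually counted as conservative, but they alter its shape: valine and isoleucine branch next to the backbone, leucine branches farther out and methionine is flexible. Every swap can arise by a single base change. Between I and V and between M and V that change is a first-base transition, between L and each of the others a first-base transversion, and between I and M a third-base change. The authors' predictions come from PolyPhen-2, which weighs the fit of the reference and variant residue to an alignment of related proteins and was run with its HumVar model, trained on human variants. A predicted class is not a measured effect on the frog protein.

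Exchanges between I and V were the most frequent of the 6 kinds, with 1200 sites (32.1% of members), and ranked 2 among the 75 residue pairs of the whole table, after alanine and threonine. L and V followed with 674 sites, I and M with 588, I and L with 503, L and M with 389, and M and V with 386. First-base transitions, the I/V and M/V kinds, made up 1586 sites (42.4%), and first-base transversions 1566 (41.9%). No member and no other missense site lay at position 1, the start methionine, and positions of members ran from 2 to 7664.

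Each exchange was then set against its reverse in number. V-to-I sites numbered 655 and I-to-V sites 545, so that V-to-I made up 54.6% of the pair (51.7 to 57.4). This was the 1 pair of the 6 that passed an exact binomial test against 50% with adjustment over all 75 pairs (adjusted p = 0.0137). In that test 21.3% of all residue pairs passed. The I/V kind also passed with at least 10 aligned residues (448 against 364, exact binomial adjusted p = 0.0324). At positions with 1 variant residue only it passed as well (647 against 539, exact binomial adjusted p = 0.0156). The call was lost with at most 1 site per gene and direction (602 against 523, exact binomial adjusted p = 0.0834), without the 1% of genes with the most missense sites (595 against 517, adjusted p = 0.0840), and within genes of the L and S pair table (316 against 267, adjusted p = 0.244).

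The other 5 kinds did not pass the exact binomial test. V-to-M numbered 212 and M-to-V 174 (54.9% V-to-M, 49.8 to 60.0, exact binomial adjusted p = 0.179), and M-to-I 316 against I-to-M 272 (53.7% M-to-I, 49.6 to 57.8, adjusted p = 0.211). Counts lay closest together for L-to-M and M-to-L, with 194 and 195 (49.9% L-to-M, 44.8 to 55.0), for L-to-V and V-to-L, with 333 and 341 (49.4% L-to-V, 45.6 to 53.3), and for I-to-L and L-to-I, with 245 and 258 (48.7% I-to-L, 44.3 to 53.2). In the I/V and M/V kinds a single base change is fixed by the residues, so bases were inferred and not read. On that basis 867 sites were G-to-A and 719 A-to-G at the first codon base, or 54.7% G-to-A (52.2 to 57.1). This pooled share was not tested. Direction runs from the reference to the variant residue, and which of them is older was not examined. These counts were not divided by the number of codons open to each change.

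**Figure D1:**
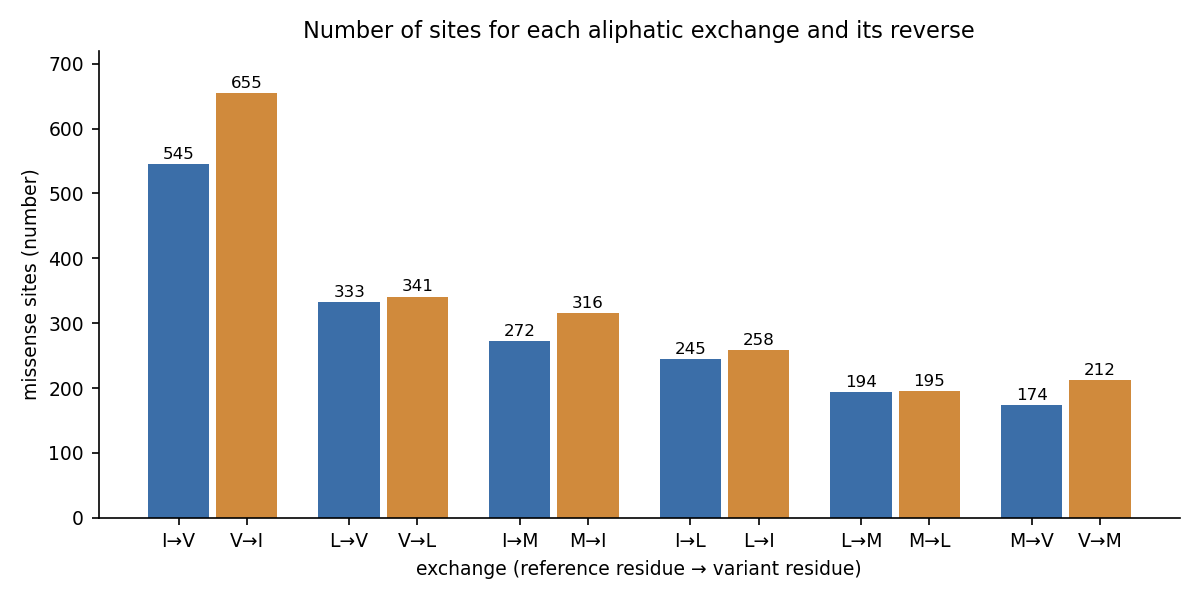
Bars give the number of missense sites (vertical axis) for each of the 12 aliphatic exchanges, with an exchange and its reverse side by side. The I/V bars are the tallest and differ most, at 655 and 545 sites, while L-to-M and M-to-L differ by 1 site at 194 and 195.

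A prediction was given for 3235 members, of which 484 were damaging (328 possibly and 156 probably damaging), or 15.0% (13.7 to 16.2). Among all other missense sites 4319 of 20875 were damaging, or 20.7% (20.1 to 21.2). The median predicted probability of damage, which runs from 0 to 1, was 0.009 in members and 0.01 in other sites, and 24.3% of members and 27.0% of other sites stood at exactly 0. The lowest damaging value was 0.447 and the highest benign one 0.446. The remaining 505 members (13.5%) had no prediction, 354 because no residue was aligned at the position and 151 with that field empty.

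An exchange and its reverse received different predictions. L-to-M was predicted damaging at 91 of 169 sites (53.8%, 46.0 to 61.5) and M-to-L at 2 of 171 (1.17%, 0.142 to 4.16). V-to-M was damaging at 92 of 181 sites (50.8%, 43.3 to 58.3) and M-to-V at 5 of 153 (3.27%, 1.07 to 7.46). L-to-I followed with 67 of 224 (29.9%, 24.0 to 36.4) against 3 of 214 for I-to-L (1.40%, 0.290 to 4.04). I-to-M, with 48 of 238 (20.2%), stood against M-to-I with 15 of 273 (5.49%). V-to-I, with 67 of 577 (11.6%), stood against I-to-V with 15 of 479 (3.13%), and L-to-V, with 52 of 275 (18.9%), against V-to-L with 27 of 281 (9.61%).

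All 6 kinds passed Fisher's exact test (two-sided) with adjustment over the 74 residue pairs that had at least 10 predicted sites in each direction. Of those 74 pairs 75.7% passed, so that a passing difference between directions was the usual case in the table and not particular to aliphatic exchanges. By size, the L/M difference ranked 4 of 74 and the M/V difference 8, whereas L/V and I/V ranked 60 and 62. L-to-M exceeded M-to-L by 52.7 percentage points (44.6 to 60.1, Fisher's exact adjusted p = 1.51e-30) and V-to-M exceeded M-to-V by 47.6 points (39.2 to 55.0, adjusted p = 3.06e-23). L-to-I exceeded I-to-L by 28.5 points (22.3 to 34.9, Fisher's exact adjusted p = 2.89e-17) and I-to-M exceeded M-to-I by 14.7 points (8.97 to 20.6, adjusted p = 1.65e-06). The smallest differences were 9.30 points for L-to-V over V-to-L (3.50 to 15.1, Fisher's exact adjusted p = 0.00353) and 8.48 points for V-to-I over I-to-V (5.4 to 11.6, adjusted p = 3.47e-07). Sites of 1 gene share an alignment and are not independent. With at most 1 site per gene and direction all 6 kinds passed as well, in the same directions, and 56 of the 74 pairs did.

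**Figure D2:**
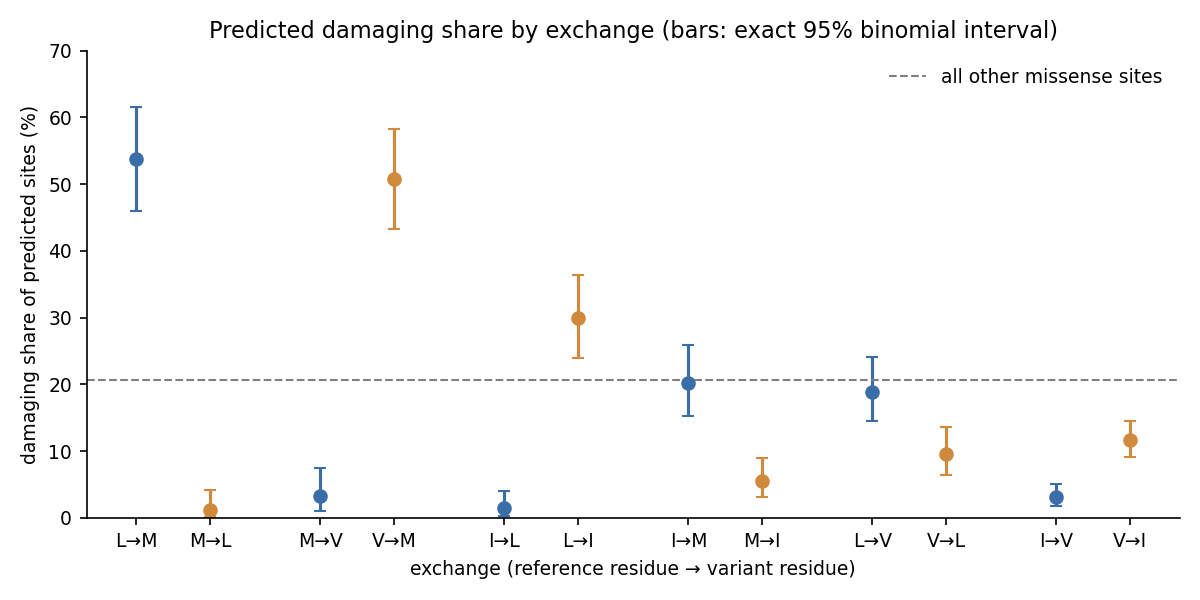
Points give the percentage of predicted sites called possibly or probably damaging (vertical axis) for each exchange, with exact 95% binomial intervals; an exchange and its reverse stand side by side, ordered by the size of their difference. L-to-M (53.8%) and V-to-M (50.8%) lie far above the dashed line of all other missense sites (20.7%), and M-to-L, I-to-L, I-to-V and M-to-V lie between 1.17% and 3.27%.

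Against all other missense sites, 10 of the 12 exchanges differed in their damaging share by Fisher's exact test, adjusted over 149 ordered exchanges, of which 61.1% passed. L-to-M (34.2 points above the rest, Fisher's exact adjusted p = 4.42e-21), V-to-M (31.1 points, adjusted p = 2.93e-19) and L-to-I (10.1 points, adjusted p = 0.000911) were higher, and 30.9% of all exchanges passed in that direction. The exchanges I-to-L, I-to-V, M-to-I, M-to-L, M-to-V, V-to-I and V-to-L were lower, with differences from -8.51 points (V-to-I) to -18.9 points (M-to-L), where 30.2% of all exchanges passed. M-to-L had the share ranked 2 from the bottom and I-to-L that ranked 3. I-to-M (0.249 points above the rest, -4.38 to 5.83) and L-to-V (-1.02 points, -5.24 to 4.05) did not pass, and L-to-M ranked 10 from the top.

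Sorted by residue, gain and loss of methionine lay farthest apart. The 588 predicted sites that gained M were damaging in 39.3% of cases (35.3 to 43.4), the 597 that lost M in 3.69% (2.32 to 5.53), and the 2050 exchanges among I, L and V in 11.3% (9.93 to 12.7). Leucine showed the opposite order, with 210 of 668 sites damaging where L was lost (31.4%) and 32 of 666 where it was gained (4.80%). Outside the aliphatic class the exchanges of methionine with threonine, lysine and arginine had the same order. T-to-M was damaging at 67 of 177 sites and M-to-T at 1 of 126 (Fisher's exact adjusted p = 1.86e-16). K-to-M was damaging at 30 of 56 and M-to-K at 2 of 34 (Fisher's exact adjusted p = 6.25e-06), and R-to-M at 15 of 29 and M-to-R at 1 of 31 (adjusted p = 4.16e-05).

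The predicted probability itself spread widely in some exchanges and hardly at all in others. Its median was 0.670 for L-to-M (quartiles 0.039 and 0.910) and 0.494 for V-to-M (0.027 and 0.838). It was 0 for both M-to-L and M-to-V, whose upper quartile was 0.001, and 65.5% and 67.3% of their sites stood at exactly 0. L-to-I had a median of 0.069 and an upper quartile of 0.578, against 0.001 and 0.00875 for I-to-L. For I-to-M the median was 0.0205 (upper quartile 0.315) and for M-to-I 0.006 (0.045). V-to-I and I-to-V had medians of 0.023 and 0.002, and L-to-V and V-to-L shared a median of 0.006 and differed in their upper quartiles (0.187 and 0.091).

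**Figure D3:**
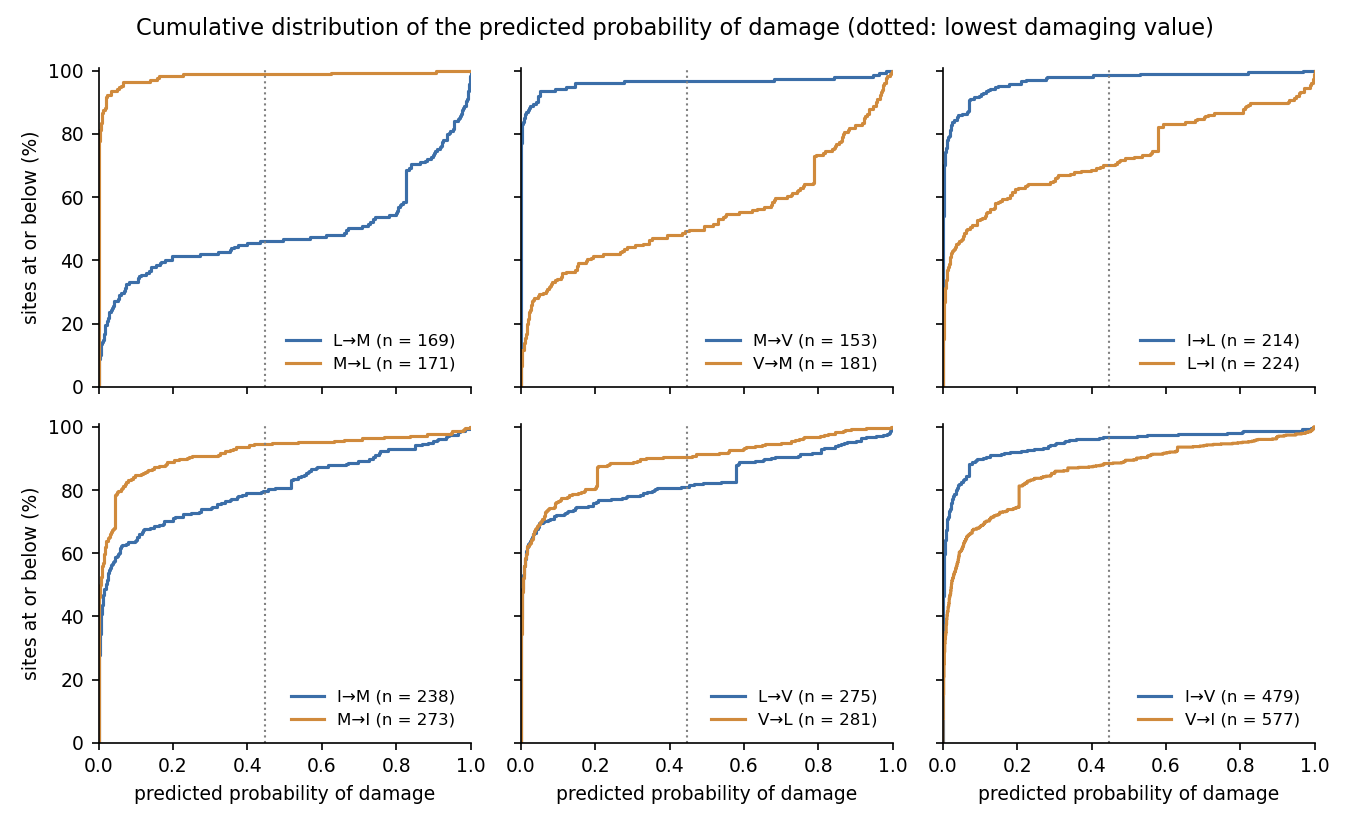
Each panel shows, for an exchange and its reverse, the percentage of predicted sites (vertical axis) at or below a predicted probability of damage (horizontal axis); the dotted line marks 0.447, the lowest damaging value. The curves of M-to-L and M-to-V start at 65.5% and 67.3% at a probability of 0, those of L-to-M and V-to-M climb slowly, and vertical steps mark values shared by many sites, such as 0.826 for L-to-M and 0.788 for V-to-M.

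When only probably damaging sites were counted, 4 kinds still passed Fisher's exact test. Of all 74 residue pairs 38 passed at this setting. L-to-M was probably damaging at 25.4% of predicted sites and M-to-L at 0 of 171, which allows up to 1.75%. V-to-M stood at 17.1% against 1.96% for M-to-V. L-to-I stood at 10.3% against 0.467% for I-to-L, and L-to-V at 4.36% against 0.712% for V-to-L. The I/M and I/V kinds no longer passed, with I-to-M at 4.62% and M-to-I at 2.20%, and V-to-I at 2.95% and I-to-V at 1.46% (Fisher's exact adjusted p = 0.216 for both).

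Among sites with at least 10 aligned residues and a gene symbol, the 1 with the highest probability is named for each exchange. The highest of these were V368M in cdh7.L, a cadherin of cell adhesion (0.999, with 77 aligned residues), and M2155I in plxnb1.L, a plexin receptor for semaphorins (0.999, 154). The second is a high value for an exchange that is mostly benign. At 0.998 stood L253M in sertad1.L, a cell cycle and transcription cofactor, L694I in pik3r4.L, the regulatory subunit of the class III phosphoinositide 3-kinase, L224V in zcchc11.L, a terminal uridylyltransferase that acts on RNA tails, and I1077M in trerf1.S, a zinc finger transcription regulator. V379I in pan3.L, a subunit of a deadenylase that shortens mRNA tails, had 0.997, V180L in fam169a.L 0.996 and I99V in myl10.L, a myosin light chain, 0.990. V379I was picked from 3 sites tied at its value and I99V from 2, by the number of aligned residues. The homeolog fam169a.S held the highest I-to-L value (I148L, 0.969). The top values of the remaining exchanges were lower, 0.906 for M489L in prox1.S, a homeodomain factor of lens, liver and lymphatic development, and 0.842 for M72V in apoe.S, an apolipoprotein. In all 12 the variant residue was absent from the alignment, which is an input of the prediction and no separate result.

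At the other end, every exchange had sites at a probability of 0 with deep alignments. Examples were M64V in clec19a.S, a C-type lectin gene (904 aligned residues), V117L in farsb.L, a phenylalanyl-tRNA synthetase subunit (362), I945L in fmnl2-like.S, related to formins of actin assembly (269), and L112V in cyth1-like.S, related to an exchange factor for ARF GTPases (262). M248I in slc38a3.L, an amino acid transporter (202), M112L in syt3.S, a synaptotagmin (188), and L78I in ctsb.L, the lysosomal protease cathepsin B (67), also had 0. So did I240V in sipa1l3.S (179), I384M in gpr124.S (124), V813I in suco-like.S (63), V130M in rnf24.S (53) and L322M in scg2.L, a granin of secretory vesicles (41). Each was picked from 2 to 40 sites tied at 0, as the one with the most aligned residues. Of these 12 sites 11 had the variant residue in the alignment, the exception being L112V in cyth1-like.S. Presence of that residue is an input of the prediction. Members that had it rested on a median of 62 aligned residues, against 19 without it. The 12 sites were chosen for many aligned residues, and the effect of that choice on this count was not tested.

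M-to-V was the rarest exchange, and 5 of its sites were damaging. They were M72V in apoe.S, M331V in tecpr1.S, which encodes a protein of autophagosome maturation (0.680, with 54 aligned residues), and 3 sites in genes without a symbol (0.947 to 0.982).

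No difference in alignment depth between an exchange and its reverse passed the test. The median number of aligned residues was 50 in members and 43 in other sites, and within the 12 exchanges it ran from 44 (L-to-I, L-to-V and M-to-V) to 56 (M-to-L). The share of predicted sites with at least 10 aligned residues was 76.0% in members and 70.9% in other sites, and ran from 71.9% (V-to-L) to 83.0% (M-to-L). By Fisher's exact test with adjustment over 74 pairs, 0 of the 6 kinds passed and 0% of all pairs did; at an unadjusted p under 0.05 there were 0 of the 6 and 4 of the 74. The largest gap was between M-to-L and L-to-M, at 7.89 points (-0.770 to 16.4, Fisher's exact adjusted p = 0.758). A prediction was lacking for 17.4% of L-to-V and 17.6% of V-to-L sites and 11.9% to 14.6% of the other exchanges.

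Whether the alignment held the variant residue is given as a description, with no test. The variant residue was found in the alignment at 80.1% of M-to-L sites (137 of 171) and 45.6% of L-to-M sites (77 of 169), at 73.9% of M-to-V and 34.3% of V-to-M, and at 78.0% of I-to-L and 52.2% of L-to-I. For I-to-V and V-to-I the shares were 77.2% and 66.2%, for L-to-V and V-to-L 65.1% and 59.1%, and for I-to-M and M-to-I 55.5% and 45.8%. In the last 2 kinds the direction with more variant residues in the alignment was also the more damaging. Over all members 2027 of 3235 predicted sites (62.7%) had the variant residue aligned, of which 91 (4.49%, 3.63 to 5.48) were damaging. Of the 1208 without it 393 were (32.5%, 29.9 to 35.3). In other missense sites the shares were 2.83% with and 42.9% without it. Presence in the alignment is an input of the prediction, so these shares describe the predictor as well as the sites.

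Within either class of alignment the direction of each kind held. Where the variant residue was absent, L-to-M was damaging at 72 of 92 sites (78.3%, 68.4 to 86.2) and M-to-L at 1 of 34 (2.94%, 0.0744 to 15.3), V-to-M at 86 of 119 (72.3%) and M-to-V at 5 of 40 (12.5%), and L-to-I at 54 of 107 (50.5%) and I-to-L at 3 of 47 (6.38%). All 6 kinds passed in that class (Fisher's exact adjusted p from 7.95e-14 to 0.0202), and 42 of all 69 residue pairs tested in it did. The split was chosen after seeing the data. Where it was present, L-to-M was damaging at 19 of 77 sites (24.7%) and M-to-L at 1 of 137 (0.730%), while M-to-I, M-to-V and I-to-L had 0 of 125, 0 of 113 and 0 of 167, which allows shares of up to 2.4%, 2.65% and 1.8%. In that class I/M (4.55 points, Fisher's exact adjusted p = 0.119) and L/V (1.37 points, adjusted p = 0.867) did not pass. Of all 68 residue pairs tested in it 14 passed.

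**Figure D4:**
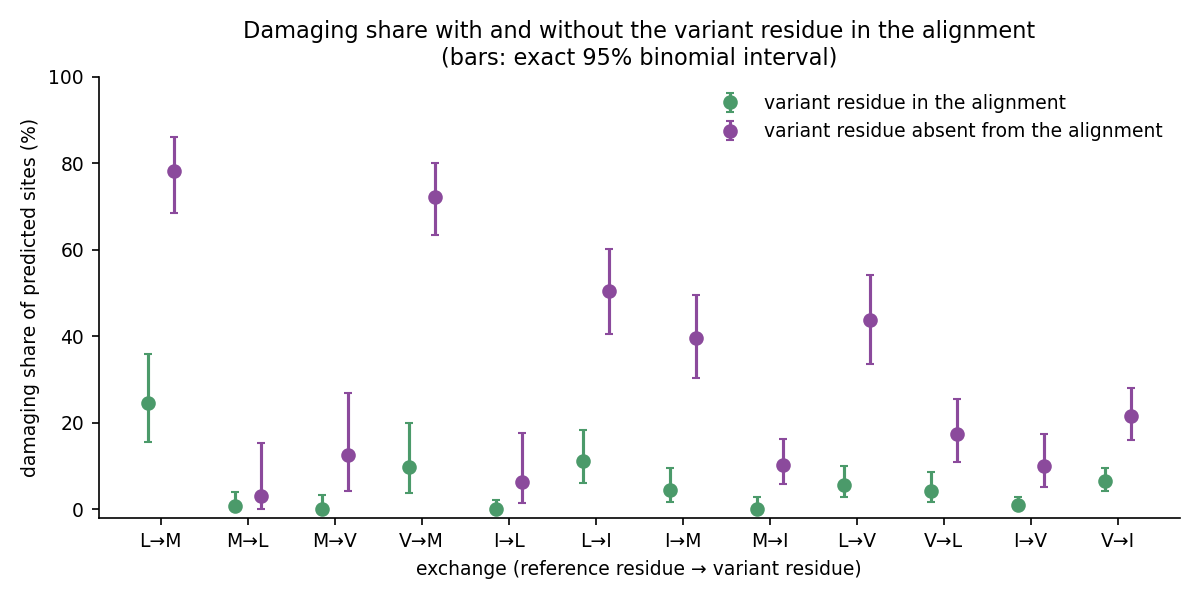
Points give the damaging share of predicted sites (vertical axis, percent, with exact 95% binomial intervals) for each exchange, split by whether the variant residue was present in the alignment (green) or absent (purple). Shares are higher without the variant residue in each of the 12 exchanges, with 78.3% for L-to-M and 72.3% for V-to-M, and remain at 2.94% for M-to-L.

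The difference between L-to-V and V-to-L was widest in thin alignments. With at least 10 aligned residues it was 3.80 points and did not pass (Fisher's exact adjusted p = 0.388). Of all 73 residue pairs tested at this setting 46 passed. At 1 to 9 aligned residues L-to-V was damaging at 19 of 77 sites and V-to-L at 1 of 79, at 10 to 49 residues at 15 of 72 and 3 of 73, and at 50 or more residues at 18 of 126 (14.3%, 8.69 to 21.6) and 23 of 129 (17.8%, 11.7 to 25.5), the opposite order. The other 5 kinds kept their order at all 3 depths. L-to-M was damaging at 54.8%, 59.5% and 51.1% of sites from the thinnest to the deepest class and M-to-L at 0 of 29, 0 of 46 and 2 of 96, where the zeros allow up to 10.3% and 6.52%. V-to-M stood at 60%, 46.2% and 50% against 0 of 36 (up to 8.33%), 2 of 50 and 3 of 67 for M-to-V.

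In the thinnest alignments many sites of an exchange shared 1 probability. Of the predicted members, 371 (11.5%) rested on 1 or 2 aligned residues and took 42 distinct values, while 1622 members with 50 or more took 382. Where the variant residue was absent from such an alignment, 13 of 16 V-to-M sites had exactly 0.788 and 13 of 22 L-to-M sites exactly 0.826, both damaging. In the same setting 12 of 19 L-to-I sites and 10 of 25 L-to-V sites had 0.578, also damaging. V-to-I and V-to-L most often had 0.205 (29 of 47 and 12 of 33), M-to-I 0.045 (20 of 33), and I-to-V and I-to-L 0.071 (11 of 22 and 4 of 8), all benign. Of these thin sites 0 of the 47 V-to-I and 0 of the 33 V-to-L were damaging, against 14 of 19 L-to-I. The sites L3393M in akap9.L, an anchoring protein of centrosome and Golgi, and L3597M in kmt2c.S, a histone methyltransferase, rested on 2 aligned residues each and both had 0.826.

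In the profile score behind the prediction, a positive difference means that the reference residue fits the alignment better than the variant. Between an exchange and its reverse, the median difference had the same order as the damaging share. The median difference was 1.85 for V-to-M and 1.47 for L-to-M, and -1.34 for M-to-L and -1.14 for M-to-V. For L-to-V and V-to-L it was nearly equal, at 0.063 and 0.054. It was positive at 89.9% of L-to-M sites and 12.3% of M-to-L sites, at 89.5% of V-to-M and 11.8% of M-to-V, and at 79.0% of L-to-I and 22.9% of I-to-L. L-to-V and V-to-L were nearly even, at 53.8% and 53.0%. This score is an input of the prediction and no independent measure.

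Gene by gene the exchanges were thinly spread, which was not compared with other classes of similar size. Of the 2980 genes with a member, 2478 (83.2%) held 1, 356 held 2, 94 held 3 and 52 held 4 or more. The most, 15 of 40 missense sites, lay in a gene without a symbol (Xelaev18040743m), with 5 damaging. Among copies with a symbol dst.S, the S homeolog of the cytolinker dystonin, led with 11 of 42 missense sites. Its L1991M was probably damaging (0.956, with 17 aligned residues), 4 others were benign, and 6 had no aligned residue and no prediction, among them V4108M and L4702M. The giant scaffold ahnak-like.S followed with 8 of 35, including 3 I-to-L changes (I1007L, I1606L and I2136L, all benign) and V260I (possibly damaging, 0.594, 229 aligned residues).

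Others among the 12 leading copies held 4 to 6. Of 8 copies that held 4, the 5 with the largest share of their missense sites in this class are described, so their shares are high by choice, and cobll1.S (4 of 13), palb2.S (4 of 24) and pprc1-like.L (4 of 30) were passed over. The DNA damage mediator tp53bp1-like.L held 6, with L297V possibly damaging (0.578) on 3 aligned residues, and kmt2c.S held 6, with L3597M the only damaging one. The zinc finger gene znf217.S held 5 of its 10 missense sites in this class and all were benign, including V188M (0.001). All 5 of apob.S, the main apolipoprotein of lipid-rich particles, were benign as well. The desmosomal cadherin dsc3.L held 4 of 7, with V438I possibly damaging (0.702, 172 aligned residues), spata18-like.S 4 of 7, with L54I possibly damaging (0.578) on 5 aligned residues, and npnt-like.S, related to the matrix protein nephronectin, 4 of 8. In the last, M184I (0.838) and V193I (0.841) were both possibly damaging on 87 aligned residues. In akap9.L, which held 4, 2 of 3 predicted sites were damaging, V3262I (0.886, 61 aligned residues) and L3393M, and L487M had no prediction.

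Homeologs, the long (L) and short (S) subgenome copies that this allotetraploid frog keeps of many genes, were compared through the authors' pair table of 8660 pairs. Of the members 832 lay in L copies, 971 in S copies and 1937 in genes outside the table. They made up 13.4% of missense sites in L copies (12.5 to 14.2), 13.0% in S copies (12.3 to 13.8) and 12.6% outside (12.1 to 13.2), intervals that overlap. S copies held 53.9% of members (51.5 to 56.2) and 54.6% of other missense sites in the table (53.7 to 55.5). How reads that match both homeologs were treated is not given in the sources used here.

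By exchange, the share in S copies ran from 48.0% for I-to-M (60 of 125) to 69.1% for I-to-L (76 of 110, 59.6 to 77.6). The 34 I-to-L sites in L lay in 34 copies and the 76 in S in 72 copies. L-to-I, its reverse, had 60 of 121 in S (49.6%, 40.4 to 58.8). The difference of 19.5 points (6.82 to 31.3) had the smallest p of the 73 pairs tested and did not pass (Fisher's exact p = 0.00320, adjusted p = 0.234). Under the alternatives its adjusted p ran from 0.346 to 0.995. Against all other sites of the table, I-to-L was 14.7 points higher (5.49 to 22.6) and did not pass either (Fisher's exact p = 0.00202, adjusted p = 0.147). In both tests 0% of all exchanges passed, with 5 of 73 pairs and 7 of 146 ordered exchanges at an unadjusted p under 0.05. The other 5 kinds differed between directions by 1.99 to 9.03 points, with intervals that include 0 (Fisher's exact adjusted p = 0.959 for each).

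**Figure D5:**
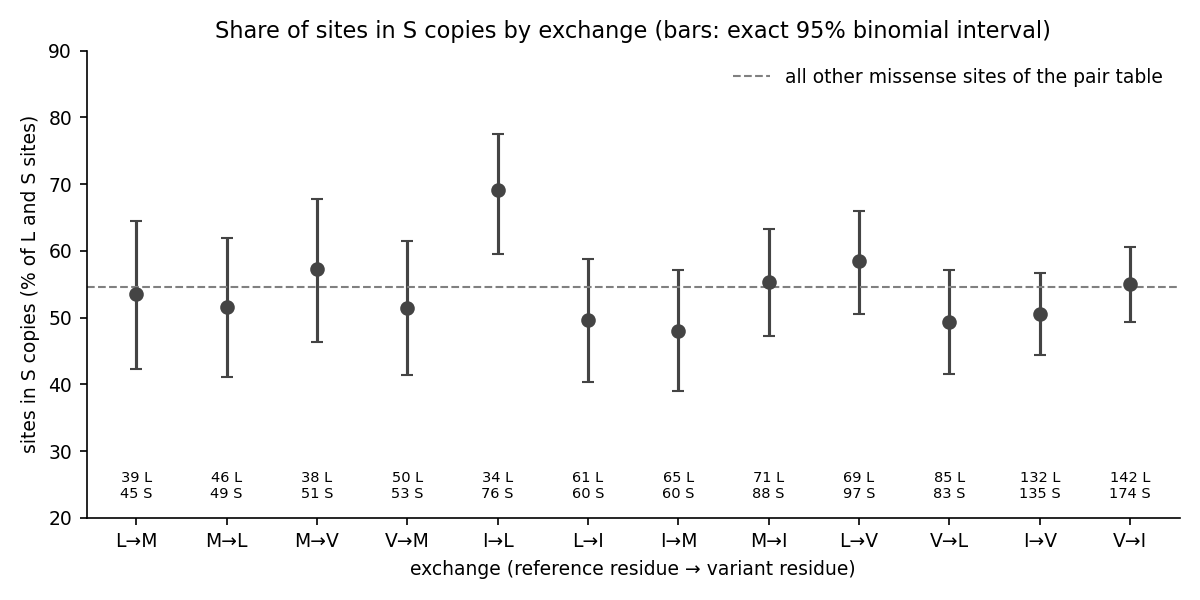
Points give the share of sites in S copies among all sites in L and S copies (vertical axis, percent, with exact 95% binomial intervals) for each exchange, with the counts of L and S sites below; the axis starts at 20%. I-to-L stands highest at 69.1%, and the intervals of the other 11 exchanges include the dashed line of all other sites of the pair table (54.6%).

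Over all 12 exchanges, predictions in L and S copies had overlapping intervals. Damaging sites were 122 of 756 in L (16.1%, 13.6 to 19.0) and 122 of 870 in S (14.0%, 11.8 to 16.5), with a median probability of 0.007 in both and median depths of 53 and 51 aligned residues. The order of L-to-M and V-to-M over their reverses was found in each subgenome. L-to-M was damaging at 23 of 38 sites in L (60.5%, 43.4 to 76.0) and 17 of 37 in S (45.9%, 29.5 to 63.1), and V-to-M at 28 of 47 (59.6%, 44.3 to 73.6) and 25 of 48 (52.1%, 37.2 to 66.7). M-to-L had 0 of 45 in L, which allows up to 6.67%, and 1 of 45 in S. M-to-V had 0 of 37 in L, which allows up to 8.11%, and 2 of 48 in S. L-to-I had 20 of 55 in L and 15 of 53 in S, and I-to-L had 1 of 31 and 1 of 65. The difference between subgenomes was not tested here for single exchanges, and their intervals overlap.

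In the 1329 pairs with a missense site listed in both copies, 651 held a member in at least 1 copy: 141 in both, 239 in L alone and 271 in S alone. Members in these pairs numbered 467 in L and 557 in S, and S copies held 54.5% of all missense sites of the pair table. Most genes with a member held only 1 (83.2%). The same counts were not made for other missense sites, so no split particular to this class is shown. The pair sun1 encodes a nuclear envelope protein that links nucleus and cytoskeleton. Its members were 4 of 11 missense sites in L and 5 of 15 in S. Their position numbers differed, in protein models that were not aligned to each other. In L they were M136V, I223L, M273V and M677I, all benign. In S they were I464M, V547I, V556M, L663I and V722I, of which I464M was possibly damaging (0.727). The pair dst held 1 of 10 missense sites in L (I3904M, benign) and 11 of 42 in S. In kmt2c members were 1 of 6 in L (L1990I, possibly damaging, 0.65) and 6 of 27 in S. In apob they were 2 of 18 in L and 5 of 13 in S, all benign. The copies of akap9 held 4 of 11 in L and 2 of 37 in S, the latter without a prediction. Those of pde4dip, a centrosome and Golgi anchoring protein, held 2 of 12 and 3 of 16, all benign. The pair pprc1-like, related to a coactivator of mitochondrial gene expression, held 4 of 30 and 3 of 43. The pair naca, a chaperone subunit for nascent chains, held 3 of 14 and 2 of 18. Neither pair had a prediction at any of these sites.

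Changes that matched by position number in both homeologs were few, in members as in all missense sites. Positions were those of each copy's own protein model, and the copies were not aligned. Matching residues whose numbers differ by more than 10 would therefore be missed. Both copies held a member in 141 pairs. Counted this way, in no pair did the copies hold an exchange and its reverse within 10 positions of each other. In 1 pair both copies held the same exchange within that distance: V454I lay at the same position of il1rap.L and il1rap.S, which encode the accessory protein of the interleukin-1 receptor. This pair was picked for naming with its values in view. Both sites were benign at 0.041, on 59 and 65 aligned residues. Over all missense sites, of which members made up 12.9%, there were 14 such matches with the same exchange and 5 with its reverse. Whether members differed from other sites in this was not tested.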

How the data were processed

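The authors deposited 3 tables of the whole series: 1 entry per protein position and change with PolyPhen-2 output, counts of sites per gene, and a table pairing L and S homeologs (8660 pairs). In the deposited per-site table the probability of damage is a fraction from 0 to 1, aligned residues are a count, profile and accessibility values are scores, and identity to homologues, not used here, is a percent. Tools listed in the submitters' processing notes are CASAVA 1.8.2, Trimmomatic, SAMtools and TopHat, with no roles stated. No variant caller, filter or genome build is stated for the calling of these sites in the sources used here. Site counts per gene equalled the per-site tallies for all 11603 genes, after 1 header line listed as a gene was left out.

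Members are entries with both residues among I, L, V and M. The members and lists were chosen with earlier results of these data known. Sites were the units, since there is 1 library per group and no column per library. Numbers were compared by exact binomial tests (two-sided) for pairs with at least 10 sites, and shares by Fisher's exact test (two-sided) with at least 10 sites in each direction, on the whole table, with Benjamini-Hochberg adjustment over all pairs and a threshold of 0.05. Exchanges against all other sites were tested in the same way. Intervals (95%) are exact binomial for shares and Newcombe for differences, and limits for counts of 0 use 3 counts. A variant residue was taken as aligned where PolyPhen-2 gives a similarity to aligned sequences that carry it. The number and damaging share tests were checked on simulated sites drawn independently, which does not cover the dependence of sites within a gene. Differences were placed in a minority of pairs, all with many sites, whereas most pairs passed in damaging share in the data. The simulated differences were larger than that of I/V in number and those of I/M, I/V and L/V in damaging share. The check therefore does not cover differences as small as these.

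Named sites followed a rule: among copies with a symbol, the 12 with the most members (ties by the larger share of the missense sites of the gene), the highest and lowest probability of each exchange with at least 10 aligned residues, the 8 homeolog pairs with the most members and at least 1 in each copy, homeologs with an exchange and its reverse up to 10 positions apart (none found), and the damaging sites of the rarest exchange. Ties in probability went to the site with more aligned residues. Python 3.11.15, pandas 2.3.3 and SciPy 1.17.1 were used. No protein or genome sequence was used here.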

Additional observations from a re-analysis of the deposited data

How the results depend on the processing

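No paired analysis was possible because no column of the tables belongs to a library and each group has 1 library. For the number of sites, the I/V kind lost its call with at most 1 site per gene and direction (46.5% I-to-V). It also lost it after the 1% of genes richest in sites were left out (46.5%) and within pair table genes (45.8%). With at least 10 aligned residues (44.8%) and at positions with 1 variant residue only (45.4%) it passed. L/M turned from 49.9% to 50.7% L-to-M when positions with several variant residues were left out, without passing either way. For the damaging share, I/M lost its call when only probably damaging sites counted (2.42 points, I-to-M minus M-to-I) or a probability of at least 0.9 was required (2.84), as did I/V (-1.48 and -1.66 points, I-to-V minus V-to-I), and L/V lost it with at least 10 aligned residues (3.80 points, L-to-V minus V-to-L). In sites with the variant residue aligned, a split chosen after seeing the data, I/M (4.55) and L/V (1.37) did not pass. L/M, M/V and I/L passed under all 7 alternatives, which include both sides of that split. How many of all residue pairs passed under all 7 was not counted, so this is not shown to be particular to these kinds. For alignment depth, L/V turned from 0.114 to -0.831 points at a threshold of 30 aligned residues, without passing. For the share in S copies, all 18 values kept their direction and did not pass. Over the whole table, 16 of 75 pairs passed in number, against 10 with at least 10 aligned residues and 8 within pair table genes. With at most 1 site per gene and direction 14 passed, without the richest genes 12, and at positions with 1 variant residue 17. In damaging share 56 of 74 passed, against 38 of 74 with probably damaging sites only and 38 of 74 at a probability of at least 0.9. With at least 10 aligned residues 46 of 73 passed, and without the richest genes 54 of 74. With the variant residue aligned 14 of 68 passed, and with it absent 42 of 69. In alignment depth 1 of 74 passed at 30 residues, against 0. The cause of these changes was not tested. The homeolog comparison had 84 to 316 sites per exchange, which limits its precision.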

Other observations

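Where a protein structure had been mapped to the site, aliphatic exchanges lay in buried positions more often than other changes. Of 94 members with a surface accessibility value, 23 (24.5%) were below 0.05, against 37 of 629 other sites (5.88%), and the median accessibility was 0.170 and 0.433. Beta strands held 46 of 123 members with a secondary structure (37.4%) and 91 of 657 other sites (13.9%), while helices held 36.6% and 36.7%. Of 22 buried members with a prediction 11 were damaging (50%, 28.2 to 71.8), and of 70 less buried ones 14 (20%, 11.4 to 31.3). The other sites had reference residues of all kinds, and changes of the same reference residues to residues outside the class were not compared. Accessibility is an input of the prediction where it exists, few sites have it, and these differences were not tested.

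Among 12 gene families picked by symbol, members made up 9.30% (collagens) to 21.1% (solute carriers) of missense sites, against 13.7% (13.1 to 14.4) over all copies with a symbol. The solute carriers, membrane transporters for small molecules, held 27 members among 128 missense sites (14.4 to 29.2), with 2 of 27 damaging. Zinc finger genes of the znf, zbtb and zfp series held 32 of 239 (13.4%, 9.34 to 18.4), with 6 of 29 predicted sites damaging, and the tmem genes, also membrane proteins, 7 of 71 (9.86%, 4.06 to 19.3), with 0 of 7 damaging. The families were not tested, and their sites are few.

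At 18 protein positions 2 aliphatic variants were listed. These were M-to-I with M-to-L at 8 positions, M-to-I with M-to-V at 7, and I-to-L with I-to-M at 3. In the 4 copies with a symbol, all 8 sites were benign at a probability of 0: M177I and M177V in dnttip1.L, M444I and M444V in ppp2r3a.L, M73I and M73V in suox.L, and M1252I and M1252L in tpp2.S. They were picked for naming with their values in view. Another missense site lay within 5 residues for 471 members (12.6%) and for 3840 other sites (15.2%).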
